A study of Mus musculus with 6 samples.

Results

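The unfolded protein response and the integrated stress response were followed through 31 genes in mouse melanoma tumours with and without vorinostat. The genes were chosen by name for their known roles, with earlier results of these data known. They were located by the Ensembl identifiers that carry those symbols in the GENCODE annotation of GRCm38. All 31 were found among the 44679 genes of the deposited tables. They comprise 14 chaperones and folding enzymes of the endoplasmic reticulum (ER), 4 genes of ER-associated degradation (ERAD), 4 genes of the sensors and their transcription factor XBP1, and 9 genes around the transcription factor ATF4. The tumours were grown from B16F10, an established mouse melanoma line that makes pigment, and are labelled as skin tumours. The untreated group held 3 tumours from mice given no drug, and the vorinostat group held 3 tumours from mice treated in vivo with vorinostat, an inhibitor of histone deacetylases. Total RNA was taken from tumour cell pellets and sequenced as stranded paired-end libraries. The labels give no mouse strain, age, dose or length of treatment, and do not say that each tumour came from a different mouse, so the p-values measure the spread between these 6 samples. All melanoma cells come from 1 established line, and the RNA of a pellet also includes that of any host cells in it. In such bulk RNA, fewer cells of a type and less RNA per cell cannot be told apart.

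The unfolded protein response is the cell's reaction to misfolded proteins in the ER. Its sensors are IRE1, which splices the Xbp1 messenger RNA, ATF6, which is cut in the Golgi to release a transcription factor, and PERK, a kinase of the translation factor eIF2. XBP1 and ATF6 switch on chaperones and degradation genes. PERK shares its target with other kinases that sense lack of amino acids, haem or viral RNA, and phosphorylated eIF2 lowers general translation while it favours translation of the Atf4 messenger RNA. ATF4 then switches on genes of amino acid supply, of redox balance and, under lasting stress, of cell death. Much of this control acts on splicing, cleavage and translation, and counts per gene do not show those steps.

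Known elements of these branches were looked for in the promoter sequences, and a minority of the ATF4-driven genes and most of the chaperones held one. Promoter windows of RefSeq on GRCm38.p6, from 250 bases before to 50 bases after the start of a gene, were available for 28 of the 31 genes. The ER stress response element (ERSE), the site of ATF6 with the factor NF-Y, was searched as CCAAT, 9 bases of any kind and CCACG, on both strands. It was present in 8 of the 28 genes (28.6%), and in 37 of 27025 genes with a window in the table (0.137%). As the genes were chosen for known roles in these branches, a share above that of all genes is no independent finding. The same holds for the elements below. Of the 12 chaperones and folding enzymes with a window 7 held it (58.3%), and of the 9 ATF4-driven genes 0 did. The following stretches, read 5′ to 3′ on the strand of the gene, show the element in capitals. Where the match lies on the other strand, the capitals read CGTGG and ATTGG.
Hspa5, chr2:34772017-34772051, plus strand: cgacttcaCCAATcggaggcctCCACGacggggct
Canx, chr11:50325792-50325826, minus strand: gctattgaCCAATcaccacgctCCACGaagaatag
Calr, chr8:84847067-84847101, minus strand: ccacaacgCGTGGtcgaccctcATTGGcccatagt
Pdia6, chr12:17266483-17266517, plus strand: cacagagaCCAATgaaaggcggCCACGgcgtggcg
Dnajc3, chr14:118937819-118937853, plus strand: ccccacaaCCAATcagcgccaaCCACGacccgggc
Creld2, chr15:88819512-88819546, plus strand: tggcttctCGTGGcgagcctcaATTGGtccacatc
Syvn1, chr19:6046524-6046558, plus strand: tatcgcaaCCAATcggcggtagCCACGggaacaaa

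The eighth gene was Hsp90b1, whose window held 2 ERSEs, 1 on each strand, in the stretch below.
Hsp90b1, chr10:86705525-86705664, minus strand: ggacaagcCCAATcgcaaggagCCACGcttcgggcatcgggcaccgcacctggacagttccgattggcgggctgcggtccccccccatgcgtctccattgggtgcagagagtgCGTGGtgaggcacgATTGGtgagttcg
A second form, ERSE-II, was searched as ATTGG, any base and CCACG. It was found in Herpud1 and Dnajb11, or 2 of 28 genes (7.14%), against 12 of all 27025 (0.0444%). The XBP1-binding unfolded protein response element, searched as TGACG directly followed by TGG, was found in 0 of the 28 windows and in 193 of all genes (0.714%).

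The ATF4 element (CARE) was searched as TGATG, any base and AA on both strands. It was present in Trib3, Asns and Chac1, which are 3 of the 9 ATF4-driven genes (33.3%), and in 1219 of all 27025 genes (4.51%). Herpud1 held it too and was the only one of the 28 genes with both an ER element and a CARE. These stretches show the CARE in capitals for Asns and Chac1 and both elements for Herpud1. In Chac1 and Herpud1 the CARE lies on the other strand and reads TTGCATCA.
Asns, chr6:7693217-7693240, minus strand: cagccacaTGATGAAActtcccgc
Chac1, chr2:119351041-119351064, plus strand: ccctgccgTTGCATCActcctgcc
Herpud1 CARE, chr8:94386309-94386332, plus strand: acggcgggTTGCATCAgcccgcac
Herpud1 ERSE-II, chr8:94386369-94386395, plus strand: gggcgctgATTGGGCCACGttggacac
A match describes these letters and is no evidence of binding in the tumours. A window without a match lacks only the letters searched for.

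**Figure D1:**
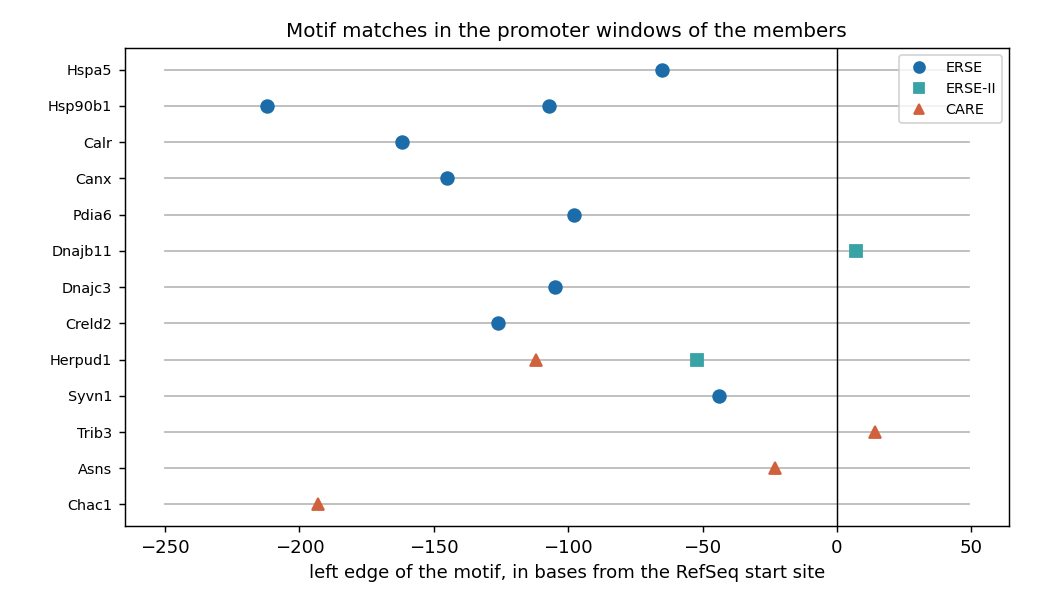
Motif matches in the promoter windows of members with at least 1 match; the x axis is the distance in bases from the RefSeq start and each symbol is the left edge of a match. The ERSE matches lie before the start site, on both strands, and the genes with an ERSE are separate from those with a CARE.

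Reads assigned to genes ranged from 11.3 M to 28.9 M per tumour. Those of nuclear protein-coding genes were lowest in untreated tumour 3, at 2.98 M, and in vorinostat tumour 3, at 3.92 M, against 5.15 M to 7.37 M in the other 4. The share of mitochondrial ribosomal RNA was 55.9% in untreated tumour 3 and 13.3% to 25.3% elsewhere. A count of 3 reads, taken as the detection limit, was worth 0.114 to 0.285 CPM, the unit used here for read counts made comparable between libraries by TMM scaling. All 31 genes lay above this limit in every tumour, with at least 37 reads, a count reached by Trib3. Among the melanocytic markers (Pmel, Mlana, Tyr, Tyrp1, Dct, Sox10 and Mitf) all 7 were tested, with a summed level of 5735 to 7978 CPM, so the defining genes of the labelled line were present in every tumour.

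No gene of the group differed between vorinostat and untreated tumours by the test. With edgeR's quasi-likelihood test and Benjamini-Hochberg adjustment, 0 of the 31 passed an adjusted p of 0.05, and DESeq2 also called 0 of them. Over all 14776 genes tested edgeR likewise called 0 (0%), with a lowest adjusted p of 0.316. At an unadjusted p under 0.05 there were 2 of the 31, Creld2 and Edem1, against 927 of all genes tested (6.27%). Both were lower with vorinostat, a direction that 2.92% of all genes showed at that p. The adjusted p-values of the 31 genes in edgeR ran from 0.743 to 0.990.

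The log2 fold changes, vorinostat minus untreated, ran from -0.58 in Edem1 to 0.22 in Ddit4, with a median of -0.05, beside 0.03 over all genes tested. Their standard errors were 0.13 to 0.43 with a median of 0.19. Values were below 0 for 20 of the 31 genes and for 45.9% of all genes tested. In a fit of nuclear protein-coding genes alone, 20 of the 31 were below 0 and 50.5% of all genes in that fit. The medians were then -0.06 and -0.003. With upper-quartile scaling in place of TMM the count below 0 became 15 of 31. A value exceeded its own standard error in 14 genes, of which 12 were lower. In 3 of the 31 genes, Canx, Creld2 and Edem1, the ranges of the groups did not overlap, against 12.1% of all genes. In all 3 the vorinostat tumours were lower, which held for 5.53% of all genes.

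**Figure D2:**
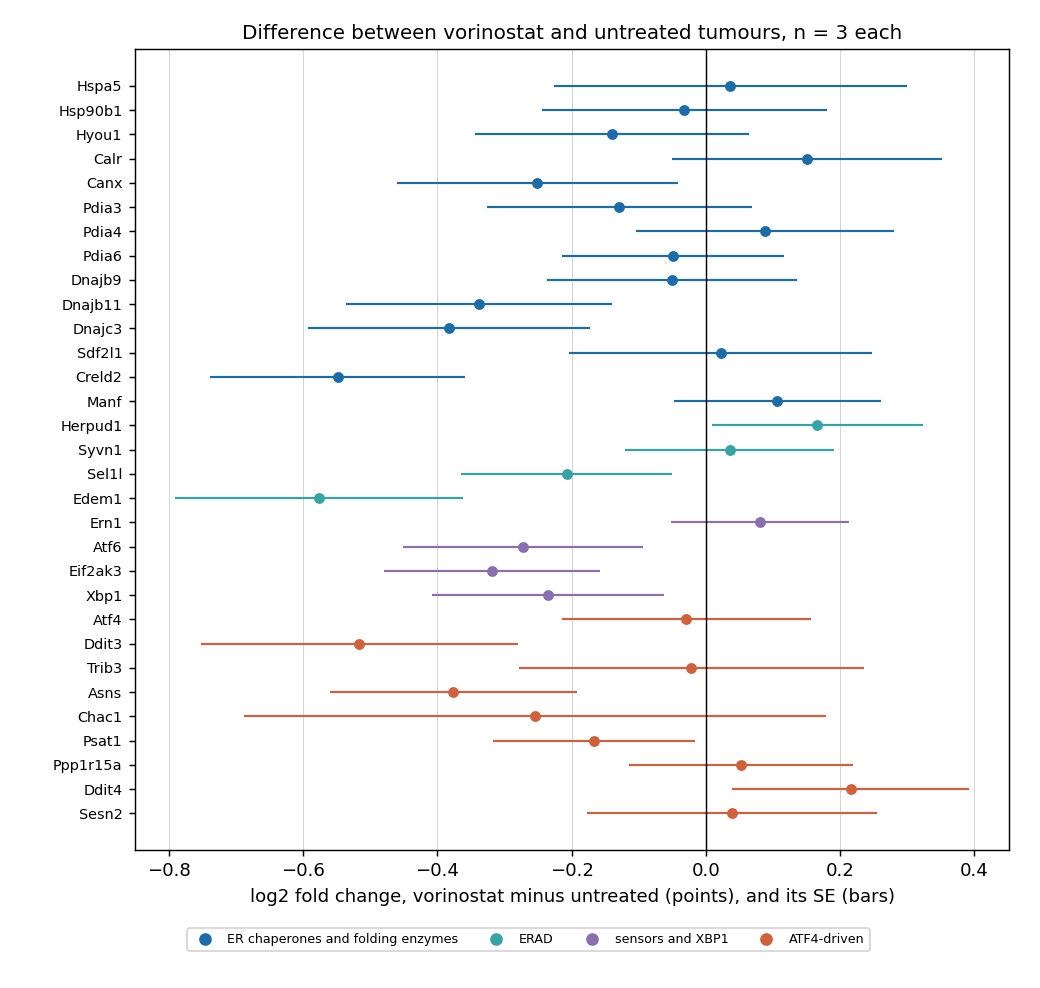
Log2 fold change of each of the 31 genes, vorinostat minus untreated (points), with its standard error (bars), coloured by role group, from edgeR over 3 tumours per group. The points run from -0.58 for Edem1 to 0.22 for Ddit4, and 0 of them passed the adjusted threshold.

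The major ER chaperones were abundant, with estimated differences between the groups on both sides of 0. Per transcript length, the mean TPM (an abundance scaled for gene length and library size) over the 6 tumours was highest in Canx at 107.7, followed by Hsp90b1 at 104.7, Hspa5 at 98.96 and Calr at 98.7. Hspa5, the HSP70 chaperone BiP that also holds the sensors inactive, had 297, 414 and 250 CPM in untreated tumours 1, 2 and 3. In the vorinostat tumours it had 366, 384 and 235 CPM. The highest and the lowest of these values fall in opposite groups and the ranges overlap almost whole. The means were 320 ± 84.1 and 328 ± 81.1 CPM (SD, n = 3 each), a log2 fold change of 0.04 (SE 0.26) with an edgeR adjusted p of 0.984.

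Hsp90b1, the ER form of HSP90, was the steadiest of the large chaperones, with 437 to 458 CPM in untreated and 391 to 487 CPM in vorinostat tumours. Its log2 fold change was -0.03 (SE 0.21). Calr, the calcium-binding lectin chaperone calreticulin, had 248 to 261 CPM untreated and 235 to 335 CPM with vorinostat, a value of 0.15 (SE 0.20). The related lectin of the ER membrane, calnexin (Canx), had 470.5, 418 and 476 CPM in untreated tumours and 382, 413 and 351 CPM in vorinostat tumours. No vorinostat tumour reached the lowest untreated one, but the gap was only from 413 to 418 CPM. The log2 fold change of Canx was -0.25 (SE 0.21), with an edgeR adjusted p of 0.817, and it was 0.03 on the log2(TPM + 1) scale centred on the median gene. Hyou1, the large HSP70-like chaperone GRP170, had 68.4 to 83.9 CPM against 49.4 to 85.3 CPM, a value of -0.14 (SE 0.20).

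The disulfide isomerases, which form and rearrange disulfide bonds, gave no common direction. Pdia3, which works with calnexin and calreticulin, had 159 to 185 CPM untreated and 125 to 187 CPM with vorinostat, a log2 fold change of -0.13. Pdia4 had 94.2 to 127 CPM and 97.6 to 141 CPM, a value of 0.09, and Pdia6 had 95.1 to 98.5 CPM and 78.0 to 103 CPM, a value of -0.05. The ranges overlapped in each. In the vorinostat group all 3 were highest in tumour 2 and lowest in tumour 3.

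Among the J-domain co-chaperones, which drive the ATPase of BiP, Dnajc3 and Dnajb11 had the larger differences. Dnajc3, also known as P58IPK and an inhibitor of eIF2 kinases, had 101, 83.8 and 148 CPM untreated and 90.2, 83.2 and 81.8 CPM with vorinostat. Its log2 fold change was -0.38 (SE 0.21), with an edgeR adjusted p of 0.745. Dnajb11 had 40.5, 34.0 and 56.9 CPM against 39.8, 32.1 and 31.6 CPM, a value of -0.34 (SE 0.20). Both were highest in untreated tumour 3. The ranges overlapped, and without that tumour the value was -0.15 for Dnajc3 and -0.13 for Dnajb11. Dnajb9, a co-chaperone that restrains IRE1, was at 11.2 to 13.03 CPM and 8.70 to 13.9 CPM, a value of -0.05.

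Creld2, an ER-stress-induced protein with disulfide isomerase-like activity, had the smallest p of the 31 genes. It had 23.9, 24.3 and 31.5 CPM in untreated tumours 1, 2 and 3, and 20.03, 20.6 and 13.2 CPM in vorinostat tumours 1, 2 and 3. Every vorinostat tumour was below every untreated tumour. The means were 26.5 ± 4.29 and 17.9 ± 4.12 CPM (SD, n = 3 each). The log2 fold change was -0.55 (SE 0.19), with an edgeR unadjusted p of 0.0147 and an adjusted p of 0.743. Without both tumours numbered 3 the value was -0.23.

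Manf and Sdf2l1, small ER proteins that are induced together with BiP, had overlapping ranges. Manf had 41.9 to 48.7 CPM untreated and 41.7 to 53.3 CPM with vorinostat, a log2 fold change of 0.11 (SE 0.15). Sdf2l1 had 11.2 to 14.2 CPM and 8.07 to 15.6 CPM, a value of 0.02 (SE 0.23). Manf shares part of its locus on the same strand with Rbm15b, and reads there could be split between both genes. Over the 14 chaperones and folding enzymes 9 values were below 0 and 5 above, with a median of -0.05.

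**Figure D3:**
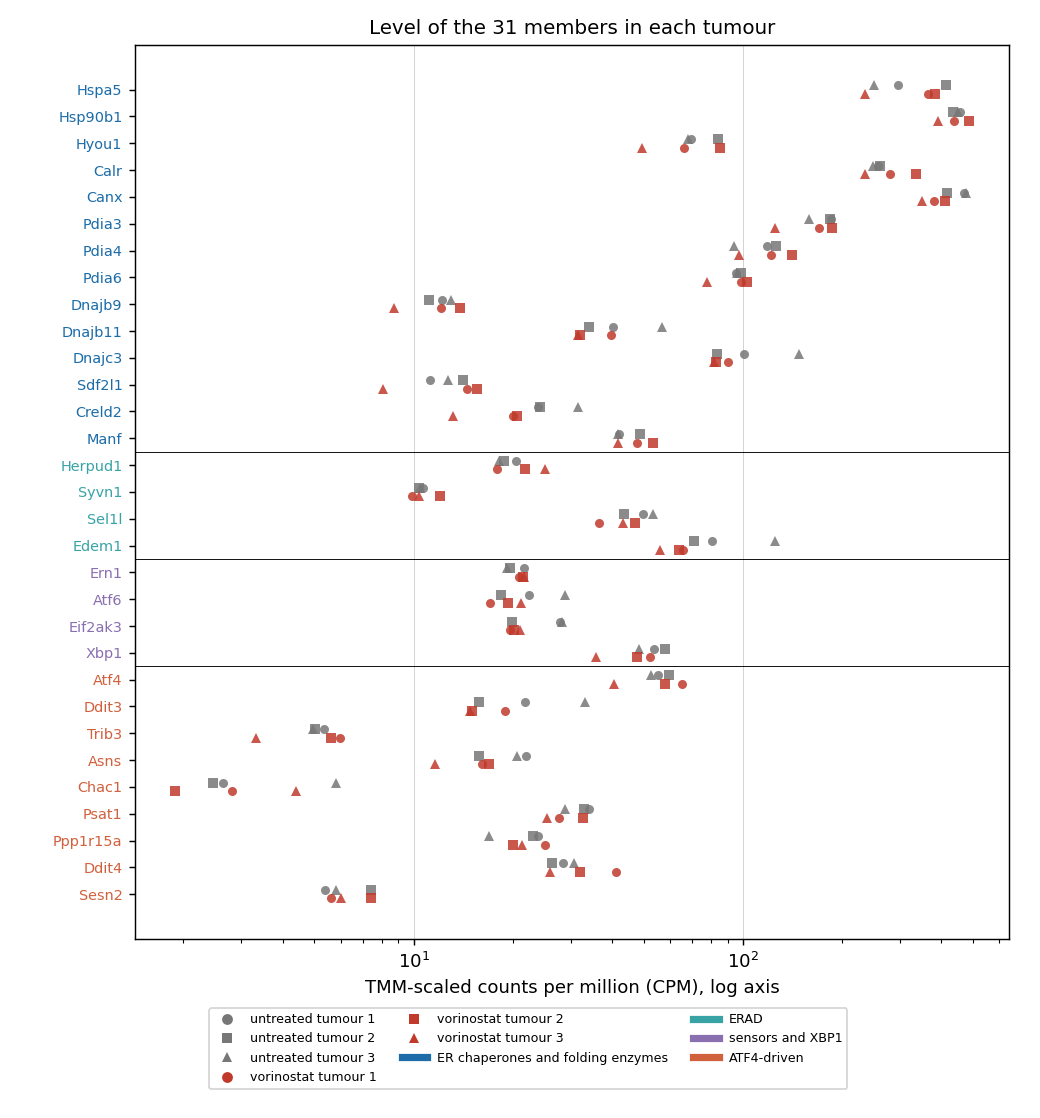
Level of each of the 31 genes in each of the 6 tumours, in TMM-scaled CPM on a log axis, ordered by role group, with untreated and vorinostat tumours in different colours. The levels run from the 1.88 CPM of Chac1 in vorinostat tumour 2 to the 487 CPM of Hsp90b1, and vorinostat tumour 3 has the lowest value in 13 of the 14 chaperones and folding enzymes.

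The ERAD genes mark misfolded proteins, carry them out of the ER and tag them for the proteasome. Edem1, a mannose-trimming protein that hands glycoproteins to this route, had the largest estimated difference of the 31 genes. Its levels were 80.5, 70.9 and 126 CPM in untreated tumours and 65.6, 63.8 and 55.9 CPM in vorinostat tumours. The ranges did not overlap, and untreated tumour 3 stood well above the other 5. With means of 92.4 ± 29.2 and 61.8 ± 5.19 CPM (SD, n = 3 each), the log2 fold change was -0.58 (SE 0.21). The edgeR unadjusted p was 0.0208 and the adjusted p 0.743. Without untreated tumour 3 the value was -0.32, and without both tumours numbered 3 it was -0.21.

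The other ERAD genes had smaller differences. Herpud1, a scaffold of the degradation complex, had 18.2 to 20.5 CPM untreated and 17.97 to 25.1 CPM with vorinostat, a log2 fold change of 0.17 (SE 0.16). Syvn1, the ubiquitin ligase HRD1, was among the steadiest genes of the set, at 10.4 to 10.7 CPM untreated and 9.90 to 11.99 CPM with vorinostat, a value of 0.04. Sel1l, the partner that stabilises this ligase, had 43.5 to 53.4 CPM and 36.7 to 47.1 CPM, a value of -0.21 (SE 0.16). Of the 4 ERAD genes 2 were below 0, and their median was -0.09. Whether Edem1 differs from the others in its response was not tested.

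Of the sensors and XBP1, 3 of 4 were below 0 with a median log2 fold change of -0.25. Eif2ak3, which encodes PERK, had 27.9, 19.9 and 28.2 CPM untreated and 19.6, 20.2 and 21.1 CPM with vorinostat. The vorinostat tumours lay close together at the level of untreated tumour 2, below the other untreated ones. The means were 25.3 ± 4.69 and 20.3 ± 0.744 CPM (SD, n = 3 each), a log2 fold change of -0.32 (SE 0.16) with an edgeR adjusted p of 0.743. Atf6 had 18.4 to 28.9 CPM and 17.1 to 21.2 CPM, a value of -0.27 (SE 0.18), or -0.13 without untreated tumour 3. Ern1, which encodes IRE1, had 19.2 to 21.6 CPM and 20.9 to 21.6 CPM, a value of 0.08 (SE 0.13), the smallest error of the set.

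Xbp1 had 53.9, 58.2 and 48.3 CPM in untreated tumours and 52.4, 47.9 and 35.9 CPM in vorinostat tumours. The ranges overlap and the lowest value was again that of vorinostat tumour 3. Its log2 fold change was -0.23 (SE 0.17), with an edgeR adjusted p of 0.781, and without that tumour it was -0.097. These counts add the spliced and unspliced forms, so they do not measure IRE1 activity.

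The ATF4-driven genes were no more separated between the groups. Atf4 itself had 55.4, 59.6 and 52.8 CPM untreated and 65.6, 57.99 and 40.5 CPM with vorinostat. Vorinostat tumours 1 and 3 were the highest and the lowest of all 6. The means were 55.9 ± 3.44 and 54.7 ± 12.8 CPM (SD, n = 3 each), a log2 fold change of -0.03 (SE 0.19) with an edgeR adjusted p of 0.982. Since Atf4 is controlled largely in translation, its RNA level is not a measure of its protein.

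Ddit3, which encodes the pro-apoptotic factor CHOP, had 21.9, 15.8 and 33.1 CPM in untreated tumours and 19.0, 15.0 and 14.9 CPM in vorinostat tumours. Untreated tumour 3 was the highest and the other 5 lay between 14.9 and 21.9 CPM. The means were 23.6 ± 8.77 and 16.3 ± 2.34 CPM (SD, n = 3 each). The log2 fold change was -0.52 (SE 0.24), with an edgeR unadjusted p of 0.0507 and an adjusted p of 0.743. Without untreated tumour 3 it was -0.23, and without both tumours numbered 3 it was -0.13.

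Asns and Psat1 serve amino acid supply. Asns, which makes asparagine, had 22.01, 15.8 and 20.5 CPM untreated and 16.1, 16.9 and 11.7 CPM with vorinostat. Untreated tumour 2 lay among the vorinostat tumours. The means were 19.5 ± 3.23 and 14.9 ± 2.83 CPM (SD, n = 3 each), a log2 fold change of -0.38 (SE 0.18) with an edgeR adjusted p of 0.743. Without both tumours numbered 3 it was -0.18. Psat1, an enzyme of serine synthesis, had 28.9 to 34.2 CPM and 25.4 to 32.6 CPM, a value of -0.17 (SE 0.15) with overlapping ranges, and of 0.08 on the centred log2(TPM + 1) scale.

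The stress regulators among the ATF4-driven genes gave values on both sides of 0. Ddit4 (REDD1), an inhibitor of mTORC1, had the highest estimate of the 31 genes, with 28.5, 26.4 and 30.7 CPM untreated and 41.1, 31.9 and 26.0 CPM with vorinostat. Vorinostat tumours 1 and 2 were above all untreated tumours and vorinostat tumour 3 below them. Its log2 fold change was 0.22 (SE 0.18), with an edgeR adjusted p of 0.811. Without vorinostat tumour 1 it was 0.019, and without both tumours numbered 3 it was 0.43.

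Ppp1r15a (GADD34), which directs the dephosphorylation of eIF2, had 16.9 to 23.8 CPM untreated and 20.1 to 25.0 CPM with vorinostat, a log2 fold change of 0.05 (SE 0.17). Sesn2, a sensor of leucine that restrains mTORC1, had 5.38 to 7.42 CPM and 5.62 to 7.44 CPM, a value of 0.04 (SE 0.22). Trib3, a pseudokinase induced by ATF4 and CHOP, had 4.95 to 5.34 CPM and 3.32 to 5.98 CPM, a value of -0.02 (SE 0.26). Chac1, which degrades glutathione, was the least certain, with 2.63, 2.45 and 5.80 CPM untreated and 2.81, 1.88 and 4.395 CPM with vorinostat. Both tumours numbered 3 were the high ones of their groups for Chac1, and its value was -0.25 with the largest error of the set, 0.43. Per transcript length, Sesn2 and Chac1 were the lowest of the 31 genes, at mean TPM values of 1.22 and 1.25.

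**Figure D4:**
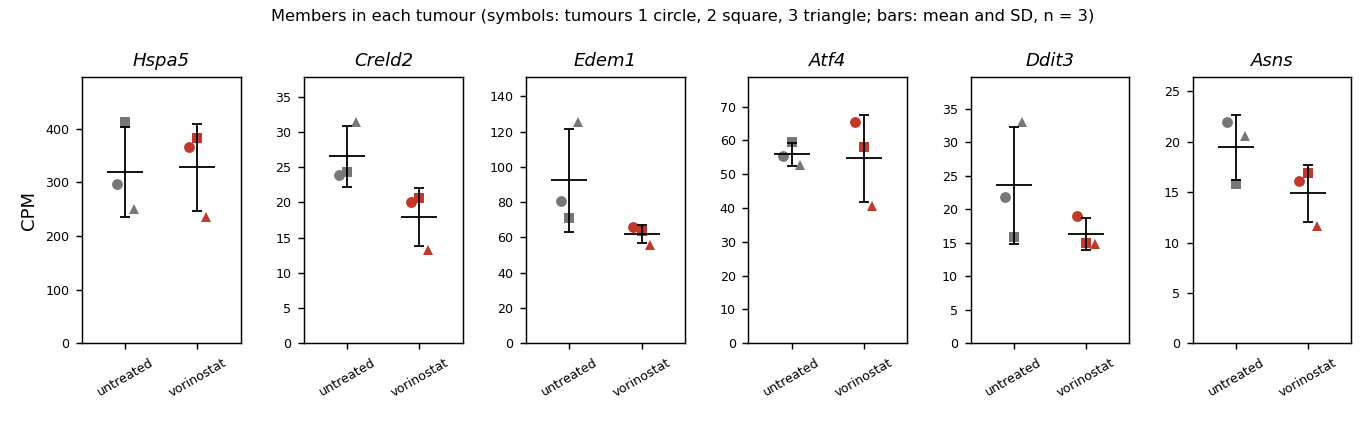
CPM of selected genes in each tumour, with the mean and SD of 3 tumours per group, axes starting at 0; circles, squares and triangles are tumours 1, 2 and 3 of each group. Creld2 and Edem1 show no overlap between groups, with untreated tumour 3 the highest, while Hspa5 and Atf4 overlap.

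Set side by side, the ER genes and the ATF4-driven genes had similarly small values. Of the 18 chaperone, folding and ERAD genes 11 were below 0, with a median log2 fold change of -0.05. Of the 9 ATF4-driven genes 6 were below 0, with a median of -0.03. The medians differed by -0.02, while the spread within each group reached from -0.58 to 0.17 and from -0.52 to 0.22. With upper-quartile scaling, which put the median of all genes at 0.09, the medians were 0.01 for the ER genes and 0.03 for the ATF4-driven genes.

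The contrast between both branches within each tumour was also small. The mean log2 CPM of the 18 ER genes, relative to the mean of the untreated tumours, was -0.03, -0.02 and 0.05 in untreated tumours 1, 2 and 3. In vorinostat tumours 1, 2 and 3 it was -0.08, 0.05 and -0.34. The ATF4-driven genes had -0.01, -0.09 and 0.10 untreated and 0.02, -0.11 and -0.27 with vorinostat. In both groups of genes vorinostat tumour 3 was the lowest, and vorinostat tumours 1 and 2 lay among or near the untreated ones. The difference of ER minus ATF4-driven genes was -0.02, 0.07 and -0.05 untreated and -0.10, 0.16 and -0.07 with vorinostat, so vorinostat tumours 1 and 2 lay on opposite sides of the untreated range. The sensors and XBP1 had 0.06, -0.14 and 0.07 untreated and -0.18, -0.15 and -0.21 with vorinostat, which do not overlap, by a narrow gap. As these 4 genes were chosen with results of these data known, no test is given for them as a group.

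**Figure D5:**
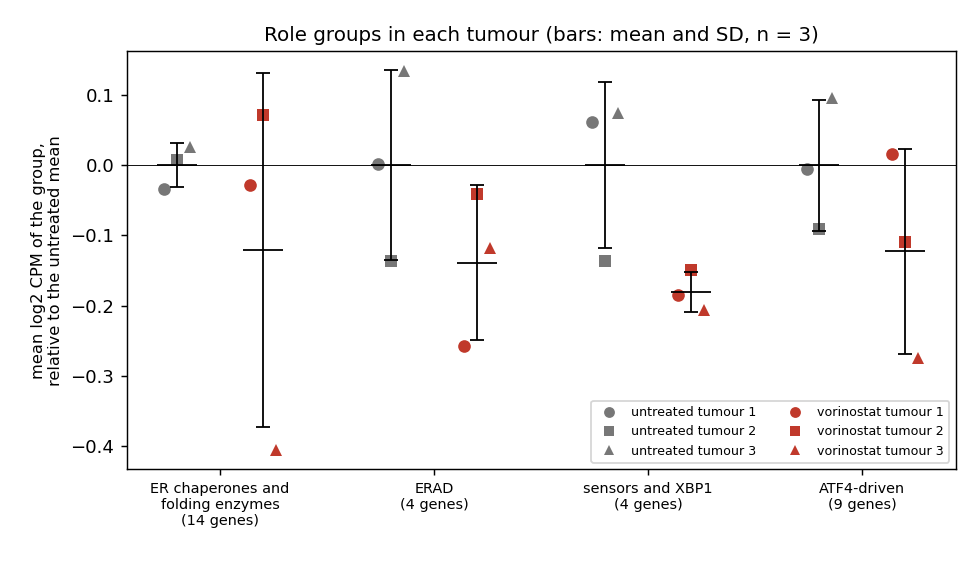
Mean log2 CPM of each role group in each tumour, relative to the mean of the untreated tumours; bars give the mean and SD of 3 tumours. Vorinostat tumour 3 lies lowest for the chaperones (-0.41) and for the ATF4-driven genes (-0.27), where vorinostat tumours 1 and 2 lie near the untreated tumours. For ERAD vorinostat tumour 1 lies lowest (-0.26). For the sensors and XBP1 all 3 vorinostat tumours lie below the untreated ones.

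A single tumour, vorinostat tumour 3, held the lowest value in 21 of the 31 genes (67.7%). Among them were 13 of the 14 chaperones and folding enzymes, all but Pdia4, and 6 of the 9 ATF4-driven genes. It was the lowest tumour for 18.3% of all genes tested, and for 30.8% of the 5521 nuclear protein-coding genes with a mean of 10 CPM or more, a threshold chosen after the values were seen. The median difference of this tumour from the untreated mean was -0.41 on the log2 scale for the chaperones, -0.33 for the ATF4-driven genes and -0.14 for those 5521 genes. All 14 chaperones were below the untreated mean in this tumour, as were 3879 of those 5521 genes. Vorinostat tumour 2, in contrast, was the highest for 9 of the 14 chaperones (64.3%), against 15.5% of the 5521 genes and 11.2% of all genes tested. Without vorinostat tumour 3 the median log2 fold change was 0.04 for the 18 ER genes and 0.07 for the ATF4-driven genes, above 0 in both, and 13 of the 31 genes were below 0. Without vorinostat tumour 2 the medians were -0.19 and -0.12, with 17 of the 18 ER genes and 27 of the 31 genes below 0.

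Untreated tumour 3 was the highest tumour for 10 of the 31 genes (32.3%), among them Edem1, Creld2, Ddit3 and Dnajc3. That share was near the 27.5% among the 5521 nuclear protein-coding genes and the 21.7% among all genes tested. It also held the most leukocyte and macrophage signal: the summed level of Ptprc, Cd68, Csf1r, Adgre1, C1qa, C1qb, Lyz2 and Itgam was 159, 86.1 and 312 CPM in untreated tumours and 193, 191 and 138 CPM in vorinostat tumours. All 8 of these markers were highest in untreated tumour 3 and lowest in untreated tumour 2. Fibroblast markers summed to 17.3 to 33.9 CPM untreated and 11.5 to 18.6 CPM with vorinostat. Of these 7 markers 6 had a log2 fold change below 0, with a median of -0.86, and 2 had an unadjusted p under 0.05 in edgeR, both lower with vorinostat, while 0 were called. The 8 B and plasma cell markers summed to 16.7 to 25.7 CPM untreated and 16.5 to 21.3 CPM with vorinostat, with Sdc1 alone at 11.1 to 15.1 CPM. Of these 8 markers 5 were tested and 0 were called by edgeR. Their median log2 fold change was -0.94, with 3 below 0 and 2 above. An unadjusted p under 0.05 in edgeR was reached by 1 of them, lower with vorinostat. Over all genes tested 6.27% reached that p in edgeR, 2.92% in the lower direction, and 45.9% had a log2 fold change below 0. Plasma cells carry very high levels of ER chaperones. Of their markers, Mzb1 averaged 0.038 CPM in untreated tumours and was listed at 0 in the vorinostat tumours. Jchain averaged 0.379 CPM untreated and 0.145 CPM with vorinostat. The part of plasma cell RNA in the 31 genes was not tested. The part of leukocyte RNA and of the high mitochondrial ribosomal share in the values of untreated tumour 3 was not tested, nor was that of fibroblast RNA in the differences between the groups.

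Genes of the same pathways outside the 31 were read from wider lists. Of 49 further genes of ER folding and ERAD 47 were tested and 0 were called by edgeR. At an unadjusted p under 0.05 in edgeR there were 4, all lower with vorinostat. That p was reached by 6.27% of all genes tested, and by 2.92% in the lower direction. Values were below 0 in 40 of the 47 (85.1%), against 45.9% of all genes tested, with a median log2 fold change of -0.16. In a fit of nuclear protein-coding genes alone 40 of the 47 were below 0, against 50.5% of all genes in that fit. The medians were then -0.17 and -0.003. Without both tumours numbered 3 there were 30 below 0 with a median of -0.06, and with upper-quartile scaling 33 with a median of -0.10. On centred log2(TPM + 1) there were 27 with a median of -0.02, and on centred log2(TPM + 0.1) 38 with a median of -0.21. Without a filter the log2(TPM + 1) scale gave 12 of 49 below 0, with a median of 0.10. The size of this shift thus varied with the processing and with the tumours included. Among all settings, the median of the list was above 0 only on log2(TPM + 1) without a filter. The smallest p on the lower side was that of Mbtps1, the protease that cuts ATF6, at 28.9 ± 3.23 CPM untreated and 21.9 ± 0.645 CPM with vorinostat (SD, n = 3 each). Its log2 fold change was -0.40 (SE 0.14). Derl2, a channel subunit of ERAD, had a value of -0.37 (SE 0.15) and Dnajc10, a reductase with a J domain, one of -0.47 (SE 0.19). On the higher side were Creb3 at 0.26 (SE 0.23), Ube2j1, a ubiquitin-conjugating enzyme of ERAD, at 0.14 (SE 0.15), and Sil1, a nucleotide exchange factor of BiP, at 0.19 (SE 0.22).

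Of 45 further genes of the integrated stress response 43 were tested, 0 were called by edgeR and 3 had an unadjusted p under 0.05. Of these 3, 2 were lower with vorinostat and 1 higher, and 6.27% of all genes tested reached that p in edgeR. Values were below 0 in 27 of the 43 (62.8%), with a median log2 fold change of -0.11. Without both tumours numbered 3 there were 24 below 0 with a median of -0.02. On centred log2(TPM + 1) there were 18 with a median of 0.05, and on centred log2(TPM + 0.1) 27 with a median of -0.10. Eif2b1, a subunit of the exchange factor that eIF2 phosphorylation inhibits, had 5.99 ± 1.52 CPM untreated and 8.56 ± 0.350 CPM with vorinostat (SD, n = 3 each), a value of 0.51 (SE 0.21). Iars, an aminoacyl-tRNA synthetase, had a value of -0.41 (SE 0.16), and Psph, the last enzyme of serine synthesis, one of -0.40 (SE 0.17). Ppp1r15b, the constitutive partner of the eIF2 phosphatase, had -0.40 (SE 0.20), the amino acid transporter gene Slc7a5 had 0.24 (SE 0.15), and the secreted hormone gene Stc2 had 1.76 (SE 0.92). Stc2 stood at 0.425 ± 0.377 and 1.54 ± 1.40 CPM, and its high mean came from vorinostat tumour 3, with 3.14 CPM. Adjusted p-values of these lists in edgeR were all 0.743 or more.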

How the data were processed

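Total RNA of 6 B16F10 tumours was sequenced as stranded paired-end libraries, per the labels' protocols. The submitters' processing notes name FastQC, Trim Galore, Salmon and GRCm38; the sources used here give no versions and no annotation. The authors deposited, per the file headers, an estimated count and a TPM value for each of 44679 genes per library. Symbols came from GENCODE, which held 44118 of the identifiers.

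Estimated counts were rounded and tested with edgeR 4.0.16 in R 4.3.3: TMM scaling, filterByExpr by group, a two-sided quasi-likelihood test of treatment with no other term, Benjamini-Hochberg adjustment over 14776 genes and a threshold of 0.05. The biological coefficient of variation was 0.314, and the code was tested on simulated data. TPM values served to compare levels between genes and as alternatives with limma 3.58.1. Other alternatives used DESeq2 1.42.0, other scaling, other filters, limma-voom, an effective length offset, nuclear protein-coding genes alone, and each tumour left out.

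The 31 genes, the wider lists and markers, and the naming rule were chosen with earlier results of these data known. The rule named all 31 genes, and from each wider list the 3 smallest p-values in each direction. Replicate numbers are names only and pair no tumours. Reads that Salmon assigned to no gene were not used here. A search for near copies, with at least 200 aligned bases at 95% identity, found matches for Eif2ak3 and Hsp90b1 only. The matching genes, Gm43292 and 1810014B01Rik, overlap them on the opposite strand and had 36 and 100 reads in all 6 libraries.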

Additional observations from a re-analysis of the deposited data

How the results depend on the processing

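None of the 31 genes was called under the main setting or any of the 20 alternatives; the lowest adjusted p among them was that of Ddit3, 0.106 with edgeR, when untreated tumour 2 was left out. Over all genes edgeR called 0, and 156 without a filter, DESeq2 called 7, limma-voom with quality weights 6, limma on centred log2(TPM + 1) 10, on centred log2(TPM + 0.1) 9 and on log2(TPM + 1) without a filter 1025, where centring over genes listed at 0 moves them all. Leaving out 1 tumour gave 0 to 121 calls, with 121 without untreated tumour 2 and 1 without untreated tumour 3. Only 7 of the 31 genes kept their sign under all 20 alternatives: Creld2, Edem1, Ddit3 and Asns lower, and Herpud1, Ern1 and Ddit4 higher. The other 24 changed sign at least once, mostly within their standard error. Dnajb11, Dnajc3, Atf6 and Eif2ak3 did so only on centred log2(TPM + 1) without a filter. Canx, Sel1l, Xbp1 and Psat1 did so only on centred log2(TPM + 1), with and without the filter. On centred log2(TPM + 1) Canx was at 0.033, Sel1l at 0.063, Xbp1 at 0.053 and Psat1 at 0.079. Without a filter that scale gave Canx 0.16, Dnajb11 0.078, Dnajc3 0.027, Sel1l 0.19, Atf6 0.11, Eif2ak3 0.10, Xbp1 0.18 and Psat1 0.21, and medians of 0.22 for the ER genes and 0.16 for the ATF4-driven genes. Dnajb9 was at 0.17 without both tumours numbered 3. When 1 tumour was left out, the median of the ER genes ran from -0.19 to 0.04, that of the ATF4-driven genes from -0.18 to 0.071 and that of ER minus ATF4-driven genes from -0.076 to 0.087; with both tumours numbered 3 left out the latter was 0.087. Apart from the steps named, the cause of these shifts was not tested. The setting without both tumours numbered 3 was chosen after tumours had been seen to stand apart in earlier results. No paired analysis was possible because the groups share fewer than 2 of the N numbers in the titles, which give only 1 in both. The G numbers of the titles, whose meaning is not explained, never occur in both groups. Whatever they stand for cannot be told apart from the treatment. Tumour numbers 1 to 3 used here follow the order of deposit. The precision of a single gene is given by its standard error, with a median of 0.19 on the log2 scale over 3 tumours per group.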

Other observations

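The genes that hold an element in their promoter window were also read as sets, leaving out the 31 genes. Of the 37 genes with an ERSE 18 were tested, and 10 of these are not among the 31. In those 10 genes edgeR called 0, 0 had an unadjusted p under 0.05, and 6 had a log2 fold change below 0, with a median of -0.13. Of the 12 genes with an ERSE-II 6 outside the 31 were tested and 0 were called by edgeR. In these 6 genes 1 had an unadjusted p under 0.05 and 5 were below 0, with a median of -0.04. Of the 1219 genes with a CARE 291 outside the 31 were tested, 0 were called by edgeR, 17 had an unadjusted p under 0.05 and 136 were below 0, with a median of 0.02. Of the 193 genes with an unfolded protein response element 116 were tested, 0 were called, 6 had an unadjusted p under 0.05, and 57 were below 0, with a median of 0.02. Beside these, 45.9% of all genes tested were below 0, and 6.27% had an unadjusted p under 0.05 in edgeR.

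Targets of NRF2, a factor of oxidative stress that PERK can also phosphorylate, were read beside the 31 genes. Of the 7 listed genes, chosen with earlier results of these data known, 0 were called by edgeR. An unadjusted p under 0.05 in edgeR was reached by 4, all higher with vorinostat, and by 6.27% of all genes tested. Values were above 0 in 6 of the 7 and ran from -0.35 to 1.66, with a median log2 fold change of 0.41. Hmox1, which encodes the haem-degrading enzyme, had 33.7, 26.3 and 33.7 CPM untreated and 95.1, 148 and 51.8 CPM with vorinostat. Every vorinostat tumour was above every untreated tumour, and the log2 fold change was 1.66 (SE 0.31) with an edgeR adjusted p of 0.706. Osgin1, Gclm and Srxn1 had values of 0.97, 0.67 and 0.41, and their groups did not overlap either. Over all genes tested 12.1% had groups that did not overlap. Of 12 genes of hypoxia 8 were above 0, with a median of 0.15 and 1 at an unadjusted p under 0.05 in edgeR, and 0 were called. The groups did not overlap in 5 of the 12, of which 3 were lower with vorinostat and 2 higher.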
